A study of Mus musculus with 4 samples.

Results

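The open chromatin of 10 basement membrane genes was described in mouse lung endothelium purified by flow cytometry. The genes were Col4a1, Col4a2, Lama4, Lamb1, Lamc1, Nid1, Nid2, Hspg2, Sparc and Fn1, and all 10 were found among 21887 protein-coding genes of the mm10 assembly. ATAC-seq, which uses a transposase to cut and tag DNA that is not wrapped in nucleosomes, had been done on 4 libraries. A pair of libraries came from Dnmt3a knockout (KO) mice and a pair from wild-type (WT) mice; Dnmt3a encodes an enzyme that places new methyl groups on cytosines in DNA. Strain, age, sex and the way in which Dnmt3a was deleted are not given by the labels, nor is the number of mice behind a library. Peaks that overlapped by at least 1 bp in any of the 4 lists were joined into merged regions, and a region belonged to a gene when it overlapped the gene span extended by 10 kb on either side. By this rule 180 of 113056 merged regions belonged to the basement membrane genes.

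A basement membrane is a thin sheet of matrix on which endothelial cells sit and which they partly make themselves. Heterotrimers of laminin chains and of collagen IV chains each form a network, and nidogens and the proteoglycan perlecan (Hspg2) join the networks to each other. In the lung capillary this sheet lies between the blood and the airspace, and collagen IV of the alpha1 and alpha2 kind, the product of Col4a1 and Col4a2, occurs in nearly every basement membrane.

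Each library was represented by a list of peak positions and widths without read counts or scores, so read depth was unknown and a library could be described only by where its peaks lay and how wide they were. The 4 lists held between 85091 and 101442 peaks, KO replicate 1 the fewest, and covered 46.6 and 47.8 Mb in KO against 51.1 and 50.5 Mb in WT. In these pooled cells, a region open in fewer cells and a region less open in every cell cannot be told apart. At Dnmt3a itself 17 and 23 peaks were listed in KO and 22 and 20 in WT, which overlap; an accessibility peak does not report whether the gene product was lost. KO replicate 2 had a peak at 0 of 4 Y-linked genes and 3 peaks at Xist, against 3 or 4 of the Y-linked genes and 1 peak at Xist in each other library. The KO libraries thus differed from each other in these sex-linked peaks. The basement membrane genes are on autosomes, and the part of this library difference in any result was not tested. Peaks within 1000 bp of a gene end were listed at 10 of 10 endothelial marker genes in every library, at 1 or 2 of 8 leukocyte markers, at 4 or 5 of 8 fibroblast markers, at 6 or 7 of 8 epithelial markers and at 7 of 8 mural (pericyte and smooth muscle) markers. The share of all genes with such a peak is not given here, so these counts do not measure how pure the cells were. In and within 10 kb of the endothelial markers there were 115 and 136 KO peaks against 142 and 130 WT peaks. The numbers were 24 and 28 against 29 and 28 for epithelium and 21 and 24 against 25 and 21 for fibroblasts. For mural cells they were 34 and 39 against 38 and 40, and for leukocytes 10 and 9 against 10 and 9. In the limma fit of covered length used below, no marker had an adjusted p under 0.05, while the epithelial marker Foxj1 differed by 0.65 ± 0.16 (log2, KO minus WT; unadjusted p 0.0122, adjusted 0.636), the fibroblast marker Tcf21 by −0.70 ± 0.22 (unadjusted p 0.0282, adjusted 0.701) and the endothelial marker Tie1 by −0.25 ± 0.08 (unadjusted p 0.0254, adjusted 0.686). These 3 were the only markers with an unadjusted p under 0.05, which 6.59% of all genes had, and were named after their values were seen. The median difference was −0.07 over the 8 epithelial markers, 5 of them below 0. It was −0.03 over the 10 endothelial markers, 6 of them below 0, and 0.11 over 6 fibroblast markers, 3 above and 3 below 0. The part of other cell types in any result was not tested.

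The collagen IV chains provided the largest share of the regions. Col4a1 (gene identifier 12826, chr8:11198423-11312889, minus strand) and Col4a2 (gene identifier 12827, chr8:11312805-11449287, plus strand) are transcribed away from each other from starts 21 bp apart, and their RefSeq promoter windows, from 250 bp before to 50 bp after the start, overlap by 78 bp. Both windows are shown because a single region, chr8:11312470-11313078, covered both starts in all 4 libraries. They are written 5′ to 3′ on the strand of each gene (RefSeq, GRCm38.p6) with every CG, the dinucleotide that DNA methyltransferases act on, in capitals; Col4a1 is chr8:11312777-11313076 on the minus strand and Col4a2 is chr8:11312555-11312854 on the plus strand, and the last 78 bases of either are the reverse complement of those of the other.
Col4a1: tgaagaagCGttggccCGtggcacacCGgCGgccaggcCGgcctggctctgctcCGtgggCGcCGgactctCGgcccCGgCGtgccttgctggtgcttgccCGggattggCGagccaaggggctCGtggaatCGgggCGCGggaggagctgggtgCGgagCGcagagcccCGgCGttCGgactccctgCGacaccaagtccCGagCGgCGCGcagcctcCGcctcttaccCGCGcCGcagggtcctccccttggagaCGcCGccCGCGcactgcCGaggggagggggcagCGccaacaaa
Col4a2: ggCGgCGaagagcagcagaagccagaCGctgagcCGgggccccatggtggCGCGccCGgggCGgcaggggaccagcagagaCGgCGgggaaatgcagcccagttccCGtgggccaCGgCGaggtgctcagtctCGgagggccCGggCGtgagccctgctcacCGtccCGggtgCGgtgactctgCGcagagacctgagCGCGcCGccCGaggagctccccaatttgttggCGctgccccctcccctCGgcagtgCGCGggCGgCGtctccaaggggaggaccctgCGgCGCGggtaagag
These are CpG-rich windows. Col4a1 held 37 CG dinucleotides, more than 94.9% of 27025 mouse promoter windows, and Col4a2 held 33, at the 92.1 percentile, where the median window held 7. The GC content was 74.0% and 73.7% against a median of 52.7%.

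The region over the shared start was 388 bp wide in KO replicate 1, 594 bp in KO replicate 2, 572 bp in WT replicate 1 and 609 bp in WT replicate 2. KO replicate 1 was the narrow library and KO replicate 2 lay between the WT libraries, so the genotypes overlapped. The KO replicate 1 peak covered 159 of the 300 bases of the Col4a1 window, where the other libraries covered 299, 294 and 300, while all 300 bases of the Col4a2 window lay under the peak in every library. The uncovered stretch lay upstream of the Col4a1 start, inside Col4a2.

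Col4a1 and Col4a2 together held 64 merged regions, 7 of them within reach of both genes, and 47 were called in all 4 lists. The Col4a1 window held 23.8 regions per 100 kb and the Col4a2 window 24.9, denser than 96.3% and 97.1% of protein-coding genes. At Col4a1, peaks covered 13769 and 13078 bp in KO and 14162 and 14166 bp in WT. At Col4a2 they covered 18602 and 18329 bp in KO and 19347 and 18978 bp in WT. Both WT libraries lay above both KO libraries at either gene, as they did over the whole lists. After quantile normalisation of covered length over 17673 genes the KO minus WT difference was −0.01 ± 0.05 (SE, log2 scale) at Col4a1 (limma, Benjamini-Hochberg adjusted p = 0.954) and 0.03 ± 0.05 at Col4a2 (adjusted p = 0.882). Neither normalised difference was larger than its error or passed the test.

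The widest region of Col4a2, inside the gene at chr8:11340126-11341531, was 1376 and 1294 bp in KO and 1356 and 1346 bp in WT. The widest region within reach of Col4a1, chr8:11322588-11323433, lies inside Col4a2 and measured 846 and 749 bp in KO and 762 and 802 bp in WT. The genotypes overlapped at both regions. One region inside Col4a2 was listed in both WT libraries and in neither KO library, at chr8:11374097-11374405. It was narrow, 238 bp in WT replicate 1 and 309 bp in WT replicate 2, where the median peak of those lists was 431 and 443 bp, and the nearest KO peaks were 1320 and 1283 bp away. Col4a1 had no region called in both libraries of 1 genotype only.

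**Figure D1:**
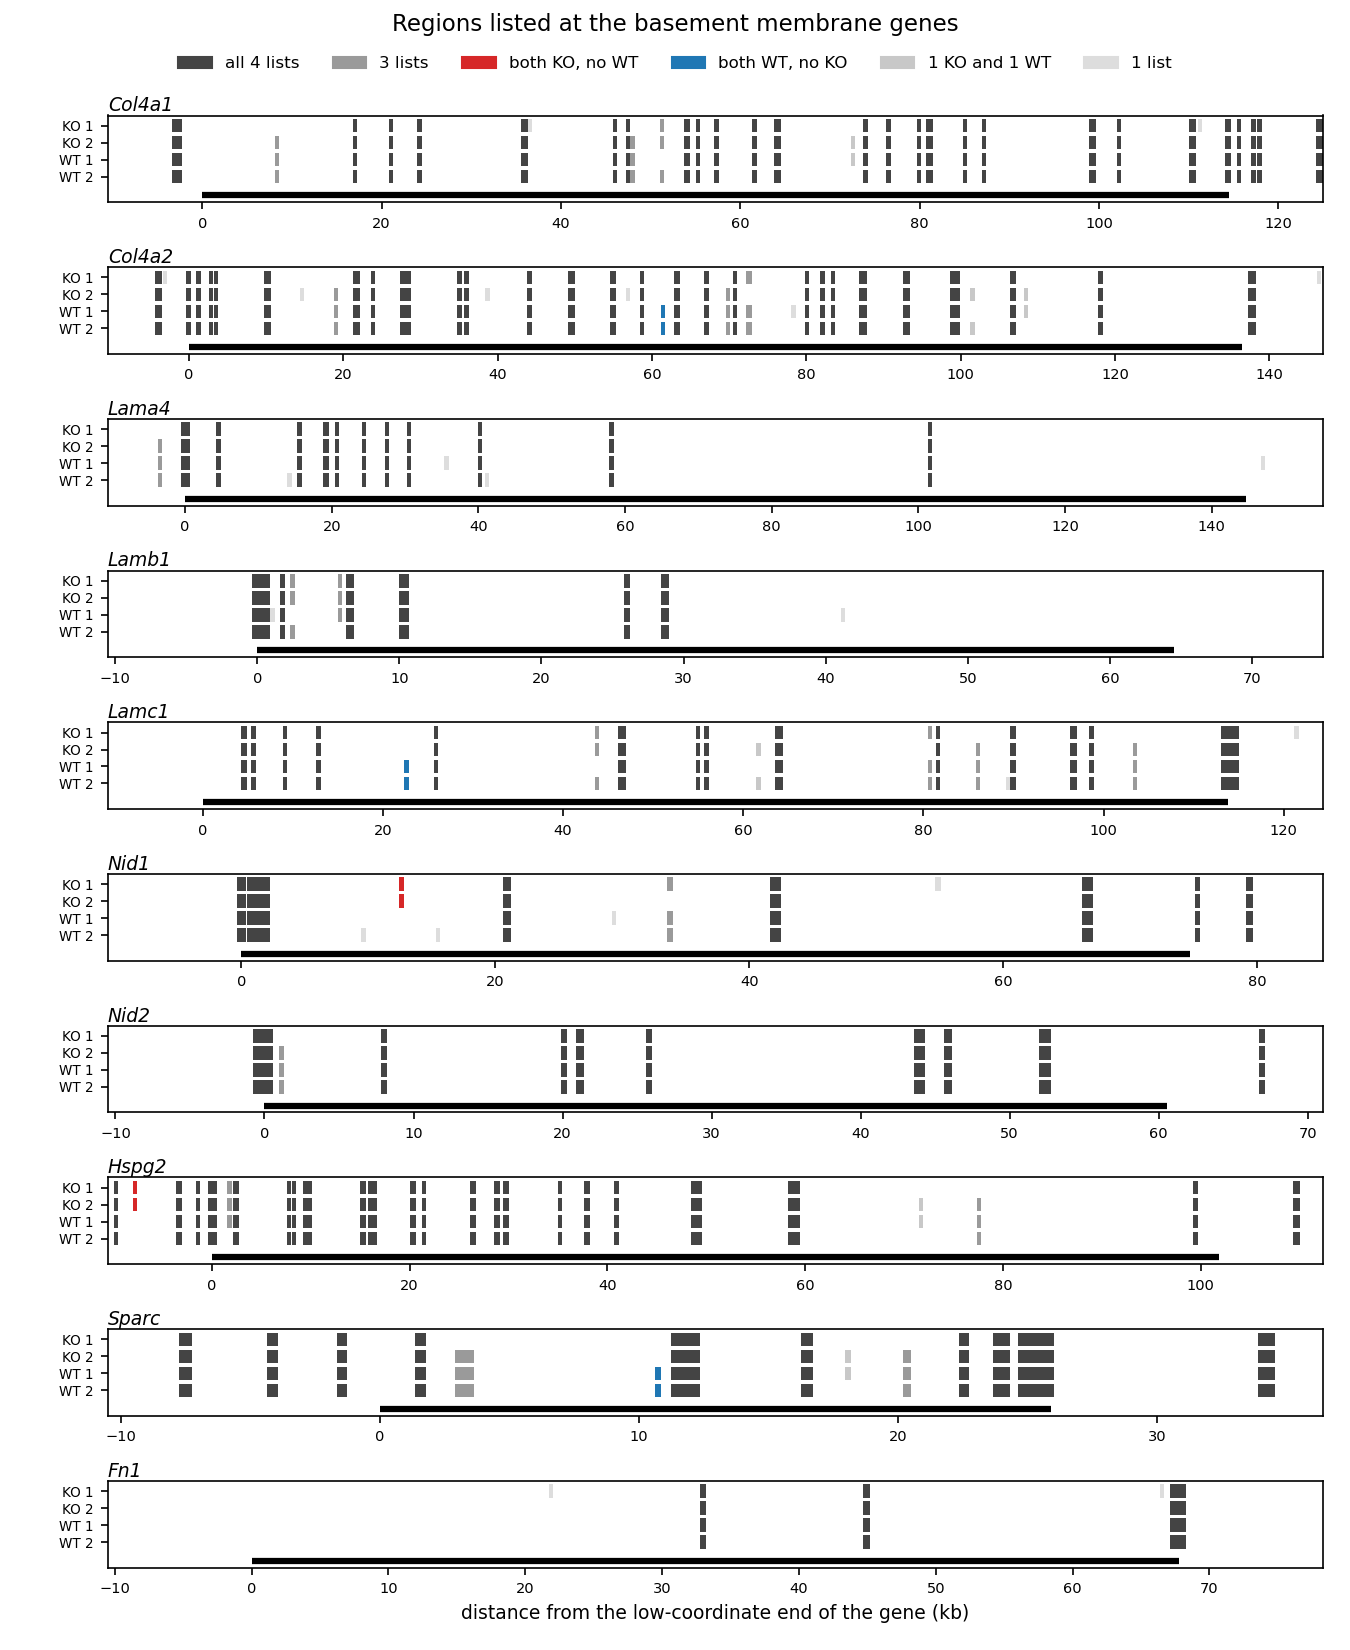
Merged regions at each of the 10 genes, plotted by distance in kb from the low-coordinate end of the gene (black bar: gene span), with 1 row for each library and marks shaded by which lists held the region and narrow marks widened so as to stay visible. Dark columns through all 4 rows are the 129 regions listed in every library, and the 2 red and 3 blue columns are the regions listed in both libraries of 1 genotype only. Regions within reach of both Col4a1 and Col4a2 are drawn under both genes. Marks take the length of the merged region in every row, not that of each list's own peak.

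The laminin genes encode the chains of an endothelial laminin: Lama4 the alpha4 chain, which is typical of vessel walls, Lamb1 the beta1 chain and Lamc1 the gamma1 chain. Lama4 (chr10:38965515-39110188) held 16 regions, 11 of them in all 4 lists. There were 11 and 12 peaks in KO and 14 and 14 in WT, which covered 5647 and 5869 bp in KO and 6121 and 6438 bp in WT. Both WT libraries were above both KO libraries in number and in length, and the normalised difference was −0.05 ± 0.06 (log2; limma adjusted p = 0.854). The region at the low-coordinate end of Lama4, chr10:38964961-38966226, measured 1058 and 1199 bp in KO and 1168 and 1244 bp in WT, and the genotypes overlapped there.

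Lamb1 (gene identifier 16777, chr12:31265146-31329644, plus strand) held 10 regions, 6 in all 4 lists, and its peaks covered 3431 and 3814 bp in KO and 4338 and 3516 bp in WT. The start was where its libraries stood apart. Its promoter window, chr12:31265043-31265342 on the plus strand, is shown because the peak over it was the widest shared region of Lamb1 and differed most between genotypes among the start regions.
Lamb1: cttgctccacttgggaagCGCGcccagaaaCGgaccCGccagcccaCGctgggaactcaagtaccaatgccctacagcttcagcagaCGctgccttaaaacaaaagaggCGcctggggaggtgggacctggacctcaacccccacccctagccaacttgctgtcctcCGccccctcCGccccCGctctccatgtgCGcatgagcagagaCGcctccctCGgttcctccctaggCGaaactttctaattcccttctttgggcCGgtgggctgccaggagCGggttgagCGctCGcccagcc
The window held 18 CG dinucleotides (capitals; 70.7 percentile). All 300 bases lay under a peak in every library, but that peak was 430 bp in KO replicate 1 and 603 bp in KO replicate 2 against 1203 bp in WT replicate 1 and 1100 bp in WT replicate 2. Within the merged region chr12:31264809-31266012, which also overlaps the long noncoding RNA gene Gm32899, each KO list held a separate second peak, of 208 bp in KO replicate 1 and 206 bp in KO replicate 2, where each WT list held 1 unbroken peak. Summed, the region measured 638 and 809 bp in KO and 1203 and 1100 bp in WT. The normalised difference was −0.65 ± 0.17 (log2), with an unadjusted p of 0.0161 and an adjusted p of 0.820 (limma over 75395 shared regions), so it did not pass the test. Over the whole Lamb1 window the difference was −0.04 ± 0.12 (limma adjusted p = 0.932).

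**Figure D2:**
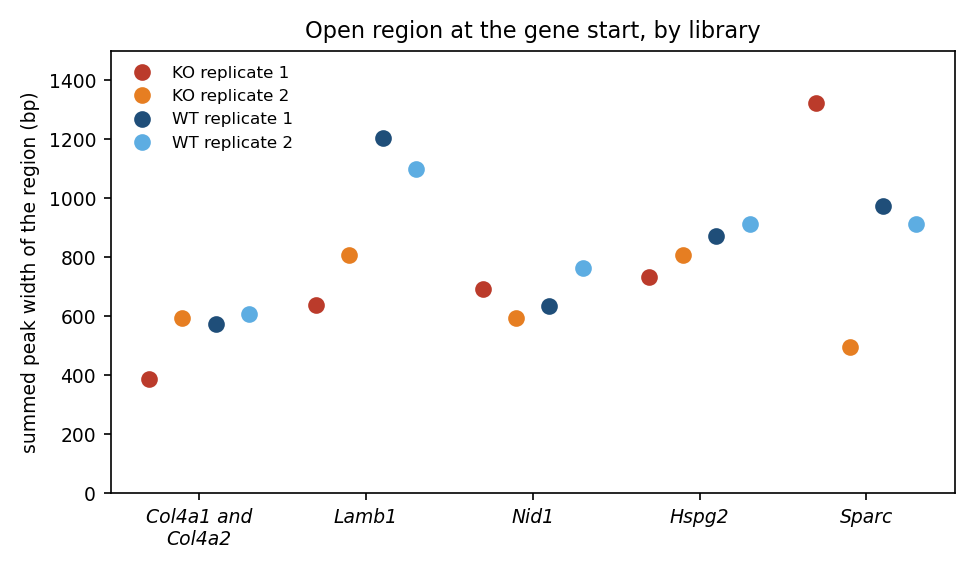
Summed peak width in bp (vertical axis, from 0) of the region over the annotated start of 6 genes, with 1 point for each library; Col4a1 and Col4a2 share a region. At Lamb1 the KO points, 638 and 809 bp, lie below the WT points, 1203 and 1100 bp, while at Sparc the KO points, 1323 and 497 bp, lie on either side of the WT points.

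Lamc1 (chr1:153218922-153332786) held 22 regions, 14 in all 4 lists. Its peaks covered 8976 and 8454 bp in KO and 10027 and 10314 bp in WT, a KO over WT ratio of 0.857, the lowest of the 10 genes, where the ratio over the whole lists was 0.929. The groups did not overlap, and the normalised difference was −0.13 ± 0.07 (log2; limma adjusted p = 0.814). The region at its high-coordinate end, chr1:153331996-153333944, was the widest of any of the 10 genes, at 1882 and 1601 bp in KO and 1685 and 1908 bp in WT, with the genotypes overlapping. Lamc1 had 1 region in both WT lists and in neither KO list, inside the gene at chr1:153241381-153241746, of 366 bp in WT replicate 1 and 256 bp in WT replicate 2. The nearest KO peaks were 2819 and 2957 bp away. A second region, named after its values were seen, had the lowest width difference of the shared regions: chr1:153282486-153283344 measured 635 and 270 bp in KO and 859 and 727 bp in WT (−0.95 ± 0.42 log2, limma adjusted p = 0.934), and the KO libraries differed from each other by more than the WT libraries did.

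The nidogens are rod-shaped glycoproteins that bind laminin and collagen IV. Nid1 (gene identifier 18073, chr13:13437602-13512275, plus strand) held 13 regions, 7 in all 4 lists, and its peaks covered 6217 and 5368 bp in KO and 5789 and 5830 bp in WT. The WT libraries lay between the KO libraries, and the normalised difference was 0.07 ± 0.10 (log2; limma adjusted p = 0.863). The region over its start, chr13:13437236-13437999, measured 693 and 593 bp in KO and 636 and 764 bp in WT. Its widest region began just past that one, at chr13:13438079-13439862, and measured 1749 and 1590 bp in KO and 1777 and 1784 bp in WT. Inside the gene, chr13:13450020-13450394 was listed in both KO libraries, at 371 bp in KO replicate 1 and 367 bp in KO replicate 2, and in neither WT library. Its peaks were at the 32.7 and 39.9 percentile of width in their own lists. By the lower of the 2 percentiles it was the highest of the 5 regions with such a pattern. The nearest WT replicate 2 peak was 2574 bp away, and WT replicate 1 had none within 5000 bp.

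Nid2 (chr14:19751257-19811787) held 10 regions, 9 of them in all 4 lists. Its peaks covered 4929 and 4664 bp in KO and 4596 and 4642 bp in WT, so that both KO libraries were above both WT libraries with a normalised difference of 0.12 ± 0.06 (log2; limma adjusted p = 0.814). A region inside Nid2, chr14:19803204-19804008, had summed widths of 619 and 615 bp in KO and 402 and 395 bp in WT. The KO replicate 2 value is the sum of separate peaks of 204 and 411 bp, where each other list held 1 peak. Its 411 bp peak was close in width and place to the WT peaks. The difference in summed width, 0.69 ± 0.09 (log2), had an unadjusted limma p of 0.00119 and an adjusted p of 0.574. At the low-coordinate end, chr14:19750511-19751797 measured 1287 and 857 bp in KO and 936 and 994 bp in WT, which overlap.

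Hspg2 encodes perlecan, a large heparan sulfate proteoglycan that binds growth factors and links the laminin and collagen IV networks. The gene (identifier 15530, chr4:137468751-137570630, plus strand) held 26 regions, 22 in all 4 lists, at 21.3 regions per 100 kb. Its peaks covered 12701 bp in KO replicate 1, 12834 bp in KO replicate 2, 11646 bp in WT replicate 1 and 11682 bp in WT replicate 2. Both KO libraries were above both WT libraries, although the KO lists covered less of the genome as a whole. The mean was 12767.5 ± 94.0 bp in KO and 11664 ± 25.5 bp in WT (SD, n = 2 each). After normalisation the difference was 0.19 ± 0.04 (log2), with an unadjusted limma p of 0.00854 and an adjusted p of 0.635, so Hspg2 did not pass the threshold of 0.05.

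Regions with a larger summed peak width in KO lay inside the gene and were listed in every library. The region chr4:137484581-137485453 was a single peak of 801 bp in KO replicate 1 and a pair of peaks of 271 and 214 bp in KO replicate 2, against 273 bp in WT replicate 1 and 218 bp in WT replicate 2. This was the largest width difference of the 10 genes, at 1.44 ± 0.24 (log2; limma adjusted p = 0.638). A neighbour at chr4:137494893-137495473 measured 488 and 425 bp in KO and 294 and 241 bp in WT (0.90 ± 0.15, limma adjusted p = 0.634). In summed width the groups did not overlap at either region. The widest Hspg2 region, chr4:137526992-137528210, measured 1025 and 1008 bp in KO and 840 and 781 bp in WT (0.35 ± 0.08, limma adjusted p = 0.780). The KO replicate 2 value is the sum of peaks of 765 and 243 bp, where each other list held 1 peak. Further regions, named after their values were seen, were chr4:137517243-137518340, at 982 and 1074 bp in KO and 689 and 743 bp in WT, and chr4:137509459-137509930, at 438 and 427 bp in KO and 375 and 336 bp in WT. At chr4:137517243-137518340 the WT values are sums of 2 peaks, 271 and 418 bp in WT replicate 1 and 542 and 201 bp in WT replicate 2. Each KO list held 1 peak there, over nearly the same stretch. The 5 regions given here, of the 22 shared at Hspg2, had an unadjusted limma p under 0.05, all with a larger summed width in KO. Such a p was found for 5.35% of all shared regions in either direction, and 0 of the 22 had an adjusted p under 0.05. The count describes a gene singled out after the fit and has no test of its own.

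At the start of Hspg2 the WT peaks were the wider ones. The region over it, chr4:137468330-137469250, measured 734 and 808 bp in KO and 872 and 914 bp in WT, a normalised difference of −0.19 ± 0.11 (log2; limma adjusted p = 0.934) that did not pass the test. It covered all 300 bases of the promoter window, which held 27 CG dinucleotides (85.3 percentile), in every library. Upstream of the gene, at a distance of 7554 bp, chr4:137460809-137461197 was listed in both KO libraries, at 234 bp in KO replicate 1 and 389 bp in KO replicate 2, and in neither WT library. It lies over the long noncoding RNA gene Gm13010, and the nearest WT peaks were 1551 and 1509 bp away.

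Sparc and Fn1 encode glycoproteins that associate with the sheet: Sparc binds collagens and is made by endothelium, and fibronectin (Fn1) binds integrins and collagen. Sparc (gene identifier 20692, chr11:55394159-55420080, minus strand) was the most densely covered gene, with 14 regions or 30.5 per 100 kb, above 99.1% of protein-coding genes. Its promoter window, chr11:55420031-55420330 on the minus strand, is shown as the counterpart to the collagen IV windows, since it was the only one of the 6 windows matched with fewer CG dinucleotides than the median promoter.
Sparc: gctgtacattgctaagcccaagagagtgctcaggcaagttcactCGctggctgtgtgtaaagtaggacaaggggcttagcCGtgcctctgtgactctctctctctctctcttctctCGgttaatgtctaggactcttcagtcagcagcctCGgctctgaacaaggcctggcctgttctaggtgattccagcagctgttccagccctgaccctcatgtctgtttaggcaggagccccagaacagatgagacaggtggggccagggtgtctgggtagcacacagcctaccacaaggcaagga
It held 4 CG dinucleotides (capitals; 35.1 percentile) and 55.3% GC. The peak at the start covered 99 and 137 of its 300 bases in KO and 128 and 144 in WT, so it lay mostly downstream of the start in every library. That peak was 1323 bp in KO replicate 1, 497 bp in KO replicate 2, 572 bp in WT replicate 1 and 496 bp in WT replicate 2. One unbroken peak in KO replicate 1 reached over most of what each WT list held as 2 peaks, and KO replicate 2 listed only the peak at the start. Summed over the region chr11:55418807-55420174, the KO widths of 1323 and 497 bp bracketed the WT widths of 973 and 914 bp.

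Sparc had 10 and 13 peaks in KO and 15 and 14 in WT, which covered 5869 and 5554 bp in KO and 6738 and 6260 bp in WT. Both WT libraries were higher on both measures, with a normalised difference of −0.11 ± 0.07 (log2; limma adjusted p = 0.814). The widest Sparc region, chr11:55405414-55406533, varied little, at 1039 and 937 bp in KO and 1009 and 995 bp in WT. Beside it, chr11:55404784-55405001 was listed in both WT libraries only, at 218 and 205 bp, widths close to the 201 bp minimum of the lists, and KO peaks lay 413 and 555 bp away. Past the low-coordinate end of the gene, chr11:55392499-55392903, which overlaps no annotated gene, measured 385 and 383 bp in KO and 224 and 231 bp in WT (0.85 ± 0.13 log2, limma adjusted p = 0.597).

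Fn1 (chr1:71585473-71653280) had the fewest regions, 5, of which 3 were in all 4 lists, at a density of 5.69 per 100 kb (45.0 percentile). KO replicate 1 listed 5 peaks and each other library 3. The peaks covered 2291 and 1891 bp in KO and 1862 and 1830 bp in WT, so both KO libraries were above WT, KO replicate 2 by a small margin (normalised difference 0.24 ± 0.11 log2, limma adjusted p = 0.814). The 2 extra peaks of KO replicate 1 were 201 and 205 bp wide. The region at its high-coordinate end, chr1:71652625-71653733, was steady, at 1071 and 1082 bp in KO and 1023 and 1023 bp in WT.

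**Figure D3:**
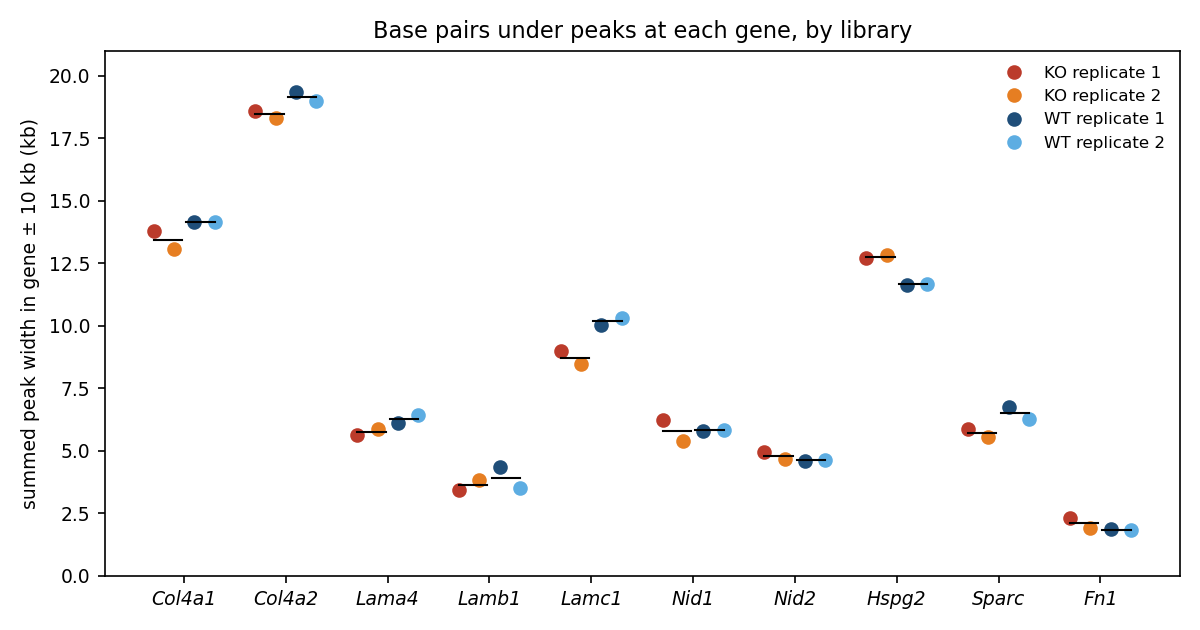
Summed peak width in kb (vertical axis, from 0) within each gene and 10 kb either side, with 1 point for each library and a bar at the mean of each genotype. Hspg2 has both KO points, 12701 and 12834 bp, above both WT points, 11646 and 11682 bp; Lamc1 has both KO points, 8976 and 8454 bp, below the WT points, 10027 and 10314 bp.

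Across the 10 genes, which regions were listed differed little between genotypes. Of the 180 regions, 129 (71.7%) were called in all 4 lists, where 66.7% of all merged regions and 68.0% of those in the window of any protein-coding gene were. Both KO lists and no WT list held 2 regions (1.11%), beside 1.12% of all merged regions and 1.11% of those at protein-coding genes. Both WT lists and no KO list held 3 regions (1.67%), beside 3.04% and 2.68%. Both shares were near or below the background with the lists as deposited. With the lists cut to equal length by width, however, 8 regions (4.94%) were KO-only beside 1.96% of all, and without KO replicate 2, 9 (5.08%) were beside 3.21%. Of the 10 genes, 2 had a KO-only region and 3 a WT-only region; among the 2217 protein-coding genes with 10 to 39 regions, the range of all members but Fn1, 19.5% and 32.6% had one. The remaining 5 genes had neither. Of these 5 regions, 4 lay inside their gene.

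Of 19 regions in 3 lists, 11 (57.9%) lacked KO replicate 1, as did 68.6% of such regions over the whole lists. KO replicate 2 was lacking in 3 (15.8%, beside 16.5%), WT replicate 1 in 3 (15.8%, beside 6.48%) and WT replicate 2 in 2 (10.5%, beside 8.42%). A further 21 regions (11.7%, beside 13.4% of all merged regions) were in a single list. Of these 21, 7 (33.3%) were in KO replicate 1, where 14.3% of all single-list regions were. Apart from these, 6 regions (3.33%, beside 4.72% of all merged regions) were in 1 list of each genotype. Regions held by a single list were narrow, with median widths between 202 and 217.5 bp, whereas the regions in all 4 lists had median widths between 474 and 505 bp. By base pairs, the Jaccard index (shared over total length) at these genes was 0.825 between the WT libraries and 0.723 between the KO libraries. It was 0.784 and 0.774 for KO replicate 2 and 0.724 and 0.744 for KO replicate 1 against WT replicates 1 and 2. Over the whole lists the values were 0.823, 0.708, 0.778, 0.778, 0.720 and 0.739 in the same order, so the KO pair had the lowest index of the 6 pairs in both, at these genes by less than the rounding shown.

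Summed over the 10 genes, the KO libraries had 148 and 164 peaks and the WT libraries 162 and 160, a mean of 156 ± 11.3 against 161 ± 1.41 (SD, n = 2 each). They covered 78915 and 76724 bp in KO and 81400 and 80570 bp in WT, or 77819.5 ± 1549 against 80985 ± 587 bp, a ratio of 0.961 where the whole lists gave 0.929. More covered length in both WT libraries was found at 5 genes (Col4a1, Col4a2, Lama4, Lamc1 and Sparc), where 34.7% of genes showed it, and more in both KO libraries at 3 genes (Nid2, Hspg2 and Fn1), where 5.65% did. These shares are over all 17673 genes with a peak, whatever their number of regions. The margin was small at Nid2 (4664 bp in KO replicate 2, 4642 bp in WT replicate 2) and Fn1 (1891 bp in KO replicate 2, 1862 bp in WT replicate 1). More peaks in both WT libraries were found at 2 genes, Lama4 and Sparc, and in both KO libraries at 0, beside 8.11% and 2.52% of genes. A comparison of 2 libraries with 2 by an exact permutation test (two-sided) cannot give a p below 0.33, which no gene went under.

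In the limma fit of covered length over all genes, 0 of the 10 passed an adjusted p of 0.05, and neither did any of the 17673 genes (0%). An unadjusted p under 0.05 was found for 1 of the 10 genes, Hspg2, and for 6.59% of all genes. The median difference was 0.01 (log2) over the 10 genes and 0.02 over all genes. With 2 libraries in each genotype the fit rests on few degrees of freedom, and the p-values measure the spread between these libraries only, since the labels do not say that they came from separate mice.

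Peak width at the 129 shared regions, summed where a list held several peaks, was compared in the same manner. The adjusted p was under 0.05 for 0 of the 129 and for 0% of all 75395 shared regions, with 0.524 the lowest at these genes. An unadjusted p under 0.05 was found for 10 of the 129 (7.75%), beside 4037 (5.35%) of all. Of the 10, 8 were wider in KO, 5 of them at Hspg2, and 2 wider in WT. Of the 4037, 1716 were wider in KO and 2321 wider in WT. After normalisation, 31 of the 129 (24.0%) were wider in both KO libraries than in both WT libraries and 17 (13.2%) wider in both WT libraries, beside 20.3% and 14.8% of all shared regions. As listed, without normalisation, the split turned around, with 14 (10.9%) wider in KO and 32 (24.8%) wider in WT, beside 7.37% and 27.1% of all. The median normalised difference was 0.03 (log2) at these genes and 0.01 over all.

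The lowest p of the 129 belonged to a region in the flank of Col4a1, chr8:11195115-11196222, over the long noncoding RNA gene Gm15418. Its summed width was 505 bp in KO replicate 1, 513 bp in KO replicate 2, 934 bp in WT replicate 1 and 1063 bp in WT replicate 2. The KO replicate 1 value is the sum of peaks of 244 and 261 bp. That of WT replicate 2 is the sum of peaks of 203 and 860 bp, and each other list held 1 peak. By these sums both KO libraries were narrower than both WT libraries. The normalised difference was −0.93 ± 0.10 (log2), with an unadjusted limma p of 0.000399 and an adjusted p of 0.524. This and the Lamb1 start were the 2 regions with an unadjusted p under 0.05 that were wider in WT. Beyond those already given, the last of the 10 was a region inside Lama4, chr10:39023465-39023895, named after its values were seen, at 431 and 392 bp in KO and 297 and 325 bp in WT (0.52 ± 0.13, limma adjusted p = 0.804).

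**Figure D4:**
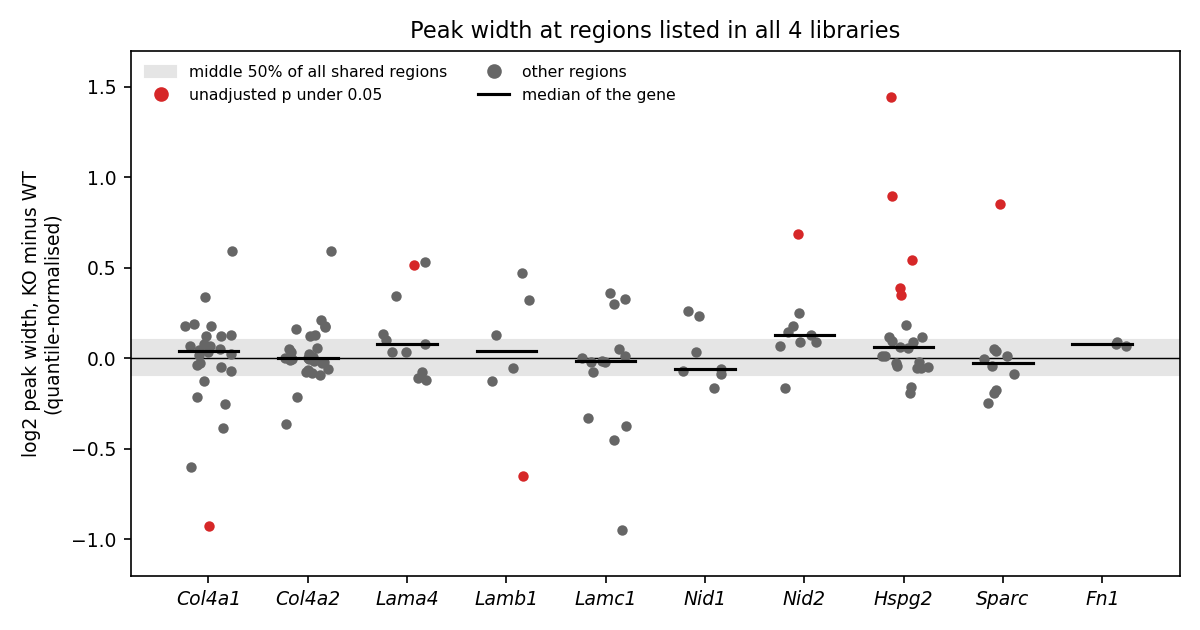
Difference in log2 peak width, KO minus WT after quantile normalisation (vertical axis), at every region of each gene that all 4 libraries listed; points are regions, bars the median of a gene, red an unadjusted limma p under 0.05, and the grey band the middle 50% of all shared regions. Widths were summed where a list held several peaks at a region. Hspg2 holds 5 of the 10 red points, all above 0, and its highest point is at 1.44.

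Of the 10 genes, 6 were matched in the RefSeq promoter table: Col4a1, Col4a2, Lamb1, Nid1, Hspg2 and Sparc. Nid1 held 20 CG dinucleotides (74.1 percentile), so that the windows ranged from 4 in Sparc to 37 in Col4a1. Short motifs were counted by exact match on both strands, as a description of letters and not of bound factors. GGAA, the core recognised by ETS factors such as Erg that mark endothelium, occurred in all 6 windows, but also in 95.9% of all promoter windows. GGGCGG, the Sp1 box, occurred in 5 of 6, all but Sparc, with 5 matches in Hspg2 and 3 in Col4a2, beside 35.9% of all windows. CCAAT, the NF-Y box, occurred in 4 of 6, all but Hspg2 and Sparc, beside 37.9%. TGANTCA (AP-1), ACAAAG (SOX) and CACGTG (E-box) occurred in 0 of the 6, beside 7.93%, 18.7% and 7.24% of all windows. The 6 windows held 34 matches at 33 sites, since the 1 Sp1 box of Col4a1 lies in the stretch shared with Col4a2 and is also counted there. In 1 place, in Hspg2, matches to different motifs overlapped.

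Genes around the basement membrane were described from lists of the other chains, the receptors, genes of matrix assembly and crosslinking, genes of matrix turnover, and interstitial matrix. In the 15 other basement membrane chains, 66.4% of 140 regions were in all 4 lists. There were 3 KO-only regions (2.14%, beside 1.12% of all merged regions) and 1 WT-only region (0.714%, beside 3.04%). Col15a1 and Col4a4, which encode collagen chains, each had 1 of the KO-only regions. In the limma fit of covered length 0 of the 15 passed, and 3 had an unadjusted p under 0.05 (20%, beside 6.59% of all genes), all longer in WT and named after their values were seen: Lama2 at −0.44 ± 0.07 (log2), Lamb3 at −0.38 ± 0.10 and Col4a3 at −0.22 ± 0.06.

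The 10 matrix receptors, integrins and dystroglycan, had 134 regions, 70.9% in all 4 lists, with 1 KO-only region (0.746%, beside 1.12% of all merged regions) at Itga6, a laminin receptor chain, and 5 WT-only regions (3.73%, beside 3.04%). These were 2 at Itgb3, 2 at Itga1, a chain of a collagen receptor, and 1 at Itgb1, the shared beta chain. The 10 genes of matrix assembly and crosslinking had 2 KO-only regions (2.90%), at Loxl2 and Plod1, and 3 WT-only regions (4.35%), at Loxl2, Tgm2 and Plod2, among 69 regions. The 10 genes of matrix turnover had 0 KO-only and 3 WT-only regions (3.66%), at Timp3, Adamts1 and Hpse, among 82. Interstitial matrix, the product mainly of fibroblasts, had fewer and less shared regions, 57 at 8 of 10 genes with 52.6% in all 4 lists, and 1 KO-only region (1.75%) at Col5a1. No gene of these lists passed an adjusted p of 0.05 in the limma fit; an unadjusted p under 0.05 was found for 3 of the 10 assembly genes, 30% beside 6.59% of all genes (Loxl2 −0.61 ± 0.20, Plod2 −0.24 ± 0.08 and Plod1 0.25 ± 0.07, log2) and for 0 receptors, 0 turnover genes and 0 of 8 interstitial genes. The median differences ran from −0.12 in turnover to 0.09 in interstitial matrix, with 0.01 at the 10 basement membrane genes.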

How the data were processed

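The 4 deposited peak lists give chromosome, start, end and width of each peak on mm10, with peak width in base pairs as the only measurement; the authors did not normalise it, per the file headers. The submitters' processing notes name cutadapt, Bowtie2 and Picard and give no version or role. How peaks were called, with which threshold and read filters, whether reads were shifted for the transposase, and how deep the libraries were is not given in the sources used here. More reads or a looser threshold add narrow peaks to a list, so a region missing from a list need not be closed, and no interval for depth could be given.

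Genotype and replicate number came from the labels. The 92 to 134 peaks per list outside the autosomes, X and Y were left out. Regions, gene windows and shared widths were built as the report describes, from RefSeq gene spans of GRCm38.p6, which give no exons or introns. Log2 peak width (summed where a list held several peaks) and log2(covered bp + 200) were quantile-normalised and compared with limma (lmFit and eBayes with a trend, no covariates), with Benjamini-Hochberg adjustment over the whole table and a threshold of 0.05. Sums over the genes were not tested. The procedures were tested on simulated data.

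Named were all 10 genes, every region called in both libraries of 1 genotype only, the region at the gene start or end, the widest shared region, the 5 shared regions with the lowest p, and list genes with a region of 1 genotype only (up to 4 a list). One item that this rule gave is not reported here. The basement membrane genes and all lists were chosen with earlier results of these data known. Replicate numbers were not taken as pairs in the main fits, since the labels do not say that they mark pairs. Alternatives covered the window, overlap and gap rules, list length, peak width, normalisation, pseudocount, gene filter, the replicate block and leaving out each library. Software was limma 3.58.1 in R 4.3.3, and pandas 2.3.3, numpy 2.4.6, matplotlib 3.10.9 and scipy 1.17.1 in Python 3.11.15.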

Additional observations from a re-analysis of the deposited data

How the results depend on the processing

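The number of differing shared regions and of differing genes in the limma fits was 0 under every alternative run. With the replicate block it was 0 as well. Deviations of same-numbered libraries from their genotype means correlated at −0.045 over shared regions and −0.080 over genes. With 2 libraries in each genotype these values cannot decide whether same-numbered libraries were handled together, which the labels do not give. The 2 KO-only regions (1.11%, beside 1.12% of all merged regions) became 1 without flanks (0.617% beside 1.12%), 4 with flanks of 50 kb (1.63% beside 1.12%), 8 with lists of equal length by width (4.94% beside 1.96%), and 4 to 9 without 1 library. They were 5.08% beside 3.21% without KO replicate 2, 2.86% beside 1.89% without WT replicate 2, 2.29% beside 2.14% without WT replicate 1 and 4.49% beside 5.83% without KO replicate 1. The 3 WT-only regions became 5 with flanks of 50 kb, 1 with peaks of at least the median width, and 7 to 14 without 1 library (14 without KO replicate 2), and their share stayed below that of all regions in each of these. Leaving out a library raises such counts by construction, since fewer lists must then hold or lack a region. Of the 5 regions, 5 kept their pattern with a 50% overlap rule and 4 with a 500 bp gap (not Sparc). With lists of equal length 2 of 5 did, the KO-only regions at Nid1 and Hspg2, and the 3 WT-only regions did not. With peaks of at least the median width 0 of 5 did.

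The difference of −5 peaks turned to 7.5 with lists of equal length and ran from −13 to 3 without 1 library (3 without KO replicate 1). The covered length difference of −3165.5 bp was −6033.5 bp with flanks of 50 kb, −265 bp with lists of equal length and −4261 to −2070 bp without 1 library. Differences in covered length (log2) turned sign without normalisation at Col4a2 (−0.0529) and Nid1 (−0.00771), without flanks at Col4a1 (0.0229) and Lama4 (0.0251), with flanks of 50 kb at Lamb1 (0.0103) and with lists of equal length at Lama4 (0.0580) and Lamb1 (0.0581). Without 1 library they ran from −0.0683 to 0.0378 at Col4a1, −0.0172 to 0.0799 at Col4a2, −0.0914 to 0.000767 at Lama4, −0.181 to 0.0932 at Lamb1 and −0.0494 to 0.184 at Nid1. The cause was not tested. Hspg2, Nid2, Fn1, Lamc1 and Sparc kept their sign in each of 12 alternatives. Hspg2 ran from 0.08 with flanks of 50 kb to 0.21 with lists of equal length.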
